A study of Homo sapiens with 12 samples.

Results

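The collagen, laminin and integrin genes were described in sorafenib-resistant and parental liver cancer cells. Members were taken by gene symbol: every Ensembl row named as a collagen chain (COL, a number, A, a number), a laminin chain (LAMA, LAMB or LAMC with a number) or an integrin chain (ITGA or ITGB with a number or subunit letter), without antisense genes and pseudogenes. This gave 82 of 27249 Ensembl genes, of which 44 were collagens, 12 were laminin chains and 26 were integrin chains. RNA was sequenced from Huh7 and HepG2, 2 established human liver cancer cell lines, each as resistant and as parental cells, in 4 groups of 3 samples. The labels describe the resistant cells as obtained over 8 months of culture with sorafenib, a multikinase inhibitor, from a first dose of 10 μmol, and the parental cells as sorafenib sensitive. Nothing in the labels says that the 3 samples of a group came from separate cultures or separately derived resistant lines, so p-values measure the spread between these samples, which may be technical.

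Collagens are trimers of alpha chains that wind into a triple helix; some build fibrils, some build the sheet of basement membranes, and others sit on fibrils or span the cell membrane. Laminins are cross-shaped trimers of an alpha, a beta and a gamma chain, and they form the other sheet of the basement membrane. Integrins are pairs of an alpha and a beta chain in the cell membrane that hold cells to collagen, laminin or RGD-bearing proteins such as fibronectin and vitronectin, and pass signals to the cytoskeleton. In the normal liver, fibril collagens come mainly from stellate cells, whereas hepatocytes carry few integrins, among them those with the alpha1 chain, and tumour cells of the liver often gain others.

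Upstream sequence is shown for 5 members on which the results turn, as the 250 bases before the RefSeq start on GRCh38.p14, in the direction of the gene. ITGA1 and ITGA2 are neighbours on chromosome 5 in the same direction, 30115 bases apart, and were lower in resistant cells of both lines. COL4A5 and COL4A6 start 346 bases apart and run in opposite directions, and COL4A5 fell in Huh7 cells under several settings. LAMB3 and LAMA5 had the largest rise on log2(FPKM + 1) among the members tested in Huh7 and in HepG2 cells, respectively. Capitals mark GGGCGG on either strand, except in COL4A5, where they mark the 121 bases (chrX:108439588-108439708) that also lie in a RefSeq window of COL4A6. The ITGA1 stretch (chr5:52787666-52787915, plus strand) holds no such motif, the ITGA2 stretch (chr5:52989102-52989351, plus strand) holds 4, the LAMB3 stretch (chr1:209652426-209652675, minus strand) holds 1 and the LAMA5 stretch (chr20:62367313-62367562, minus strand) holds 5. The COL4A5 stretch lies at chrX:108439588-108439837 on the plus strand.
ITGA1: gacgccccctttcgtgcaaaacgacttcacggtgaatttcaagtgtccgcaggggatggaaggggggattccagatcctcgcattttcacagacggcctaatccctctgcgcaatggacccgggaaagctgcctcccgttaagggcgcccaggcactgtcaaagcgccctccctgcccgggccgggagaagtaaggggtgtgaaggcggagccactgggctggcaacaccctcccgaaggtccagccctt
ITGA2: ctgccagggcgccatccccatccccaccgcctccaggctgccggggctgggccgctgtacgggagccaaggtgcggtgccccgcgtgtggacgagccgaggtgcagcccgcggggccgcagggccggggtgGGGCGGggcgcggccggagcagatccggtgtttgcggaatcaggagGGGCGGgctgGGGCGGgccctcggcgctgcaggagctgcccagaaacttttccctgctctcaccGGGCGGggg
COL4A5: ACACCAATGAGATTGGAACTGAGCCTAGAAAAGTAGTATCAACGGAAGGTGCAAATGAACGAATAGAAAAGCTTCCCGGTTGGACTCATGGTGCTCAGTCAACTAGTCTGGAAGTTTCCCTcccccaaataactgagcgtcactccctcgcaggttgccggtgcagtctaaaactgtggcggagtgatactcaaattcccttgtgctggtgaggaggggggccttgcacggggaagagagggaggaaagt
LAMB3: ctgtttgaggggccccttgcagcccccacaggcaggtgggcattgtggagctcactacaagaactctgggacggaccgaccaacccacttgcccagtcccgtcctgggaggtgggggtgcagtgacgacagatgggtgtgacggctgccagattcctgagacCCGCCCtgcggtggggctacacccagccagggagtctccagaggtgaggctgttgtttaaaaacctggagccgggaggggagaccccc
LAMA5: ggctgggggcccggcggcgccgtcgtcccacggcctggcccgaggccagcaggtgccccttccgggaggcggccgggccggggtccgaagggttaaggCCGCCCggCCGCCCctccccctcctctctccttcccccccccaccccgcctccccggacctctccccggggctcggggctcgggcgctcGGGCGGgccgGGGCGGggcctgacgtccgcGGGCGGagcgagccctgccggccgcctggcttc

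RefSeq windows (250 bases before to 50 after a start) were found for 58 of the 82 members. On either strand, GGGCGG was in a window of 35 of these 58 genes and in 45.0% of all 35114 windows, and CCAAT in 18 of 58 genes and 34.6% of windows. TGANTCA was found for 4 of 58 genes against 7.71% of windows, and TATAAA for 9 of 58 genes against 11.5%. Genes with several windows had more chances of a match, so the shares are a description. The median GC content was 61.7% in the members' windows and 58.7% in all.

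The values are decimals whose pattern is that of FPKM, reads scaled by gene length and depth, and the 12 samples rest on 12290128 to 19285959 reads by the step of the values. Within each group, samples differed by far more than sampling noise, and none was counted as a repeat. Among the HepG2 samples, resistant replicate 1 was farther from resistant replicates 2 and 3 (49.0 and 24.3, as chi-square per gene) than these were from each other (9.10). All 10 hepatocyte markers were expressed in both lines. In resistant Huh7 cells, 3 of them were higher and 3 lower at an adjusted p-value under 0.05 in limma. In resistant HepG2 cells, 0 were higher and 3 lower. A log2 fold change beyond 1 was reached by AFP in Huh7 and by AFP and FGB in HepG2, all lower. By contrast, 7 of 9 fibroblast or stellate, 7 of 8 endothelial and at least 4 of 7 leukocyte markers were below 1 FPKM in every sample of a line. Among 6 cholangiocyte markers, KRT19 was 6.07 to 8.76 FPKM in parental and 55.3 to 81.7 FPKM in resistant Huh7 cells and EPCAM 5.84 to 6.37 and 23.5 to 27.2 FPKM, while SOX9 was lower (70.7 to 91.2 and 48.8 to 59.0 FPKM) and 3 were below 1 FPKM; their part in the results was not tested. The library kit named in the labels does not keep the strand, so reads of a member and of a gene that overlaps it on the other strand cannot be told apart. In RNA from whole cultures, fewer cells that express a gene and less RNA per cell cannot be told apart either.

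Most members were low. In total, 40 members reached 1 FPKM in some sample and 42 never did, and 4 had no more than 3 reads in any sample. A member was tested in a comparison when at least 3 of its samples had 1 FPKM or more, which left 30 members in Huh7, 22 in HepG2 and 37 over all 12 samples. Of the 82 members, 15 were tested in both lines and 45 in neither. A member was called when its Benjamini-Hochberg adjusted p-value in limma, over all genes tested, was under 0.05 and its log2 fold change, on log2(FPKM + 1), was beyond 1. Fold changes on this scale understate the change of low genes, and rose and fell are used for called members.

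**Figure D1:**
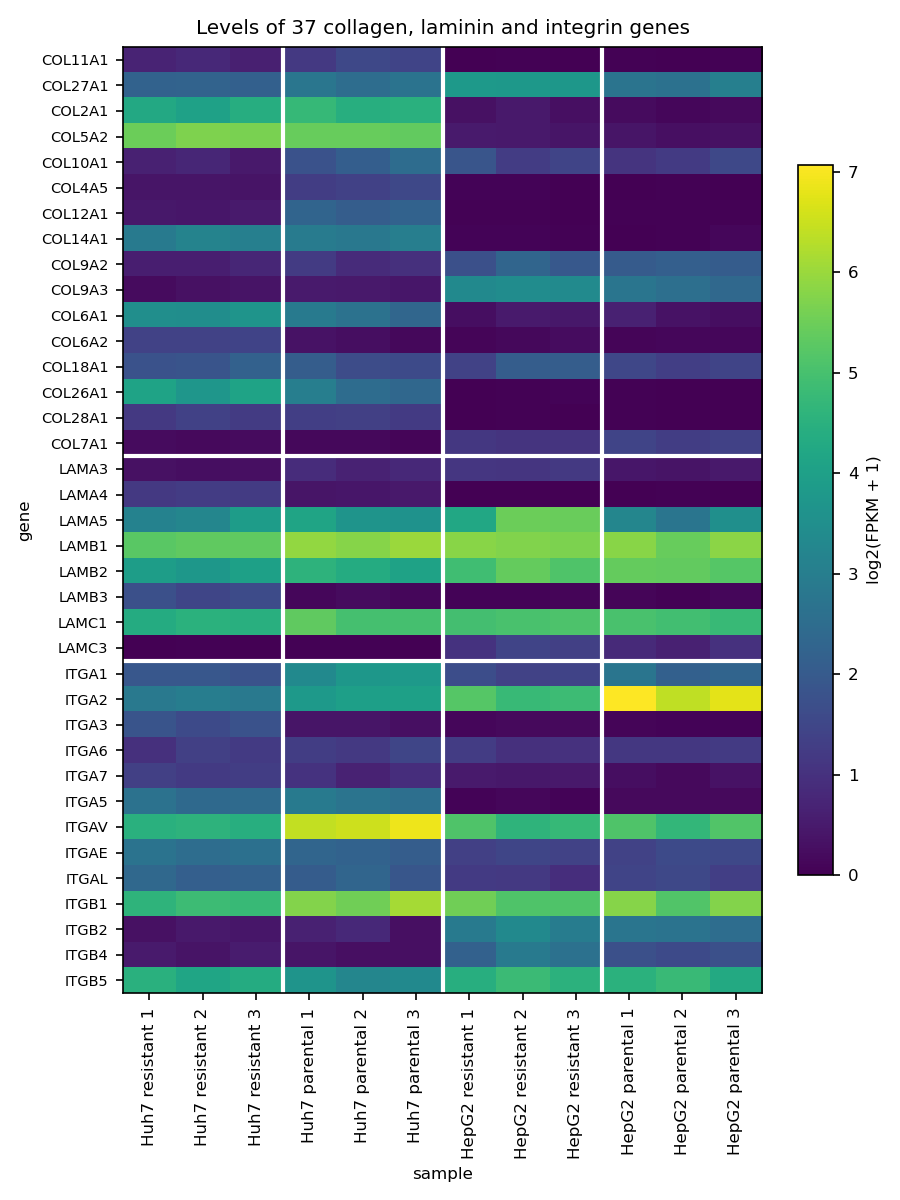
Levels of the 37 members that reached 1 FPKM in 3 samples or more, as log2(FPKM + 1), with genes as rows and samples as columns; white lines part the groups and the collagens, laminins and integrins. ITGA2 in parental HepG2 cells (83.8 to 133 FPKM) and ITGAV in parental Huh7 cells (85.5 to 119 FPKM) are the brightest fields, and COL5A2, COL2A1, COL14A1 and COL26A1 are bright in Huh7 only.

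In Huh7 cells, 4 members rose and 6 fell in resistant cells, of 30 tested. LAMB3, ITGA3, COL26A1 and COL6A2 rose, and ITGAV, ITGA1, COL12A1, COL10A1, ITGB1 and ITGA2 fell. Over all 12554 genes tested, 8.59% rose and 14% fell, 22.6% in either direction, against 33.3% of the members. Groups did not overlap for 23 of 30 members (76.7%) and for 74.5% of all genes, so this share was near the background. The median log2 fold change was -0.18 over the members and -0.04 over all genes. In Huh7, fold changes followed the GC content of the genes (Spearman's rho 0.62 across genes, which are not independent replicates), and the members did so too: the 6 that fell had 38.3% to 46.3% GC and the 4 that rose had 58.9% to 66.4%. With the trend of each sample against GC content taken off, 0 members rose and 7 fell. Those 7 were ITGAV, ITGA1, COL12A1 and COL10A1, as before, and COL4A5, COL27A1 and LAMB2. The rises of LAMB3, ITGA3, COL26A1 and COL6A2 kept their direction at log2 0.85, 0.78, 0.78 and 0.64, with adjusted p-values of 0.000565 to 0.00322 in limma, and lost the fold threshold. LAMB3, ITGA3, COL6A2 and LAMA4 reached 1 FPKM in the 3 resistant samples alone, so without any 1 of these they were not tested, and the same held for COL12A1, COL10A1, COL4A5 and COL11A1 and the parental samples. A gene that passes the level needed only through its higher group has to differ, so the tests of these 8 members are not independent of that requirement. Whether the GC trend is technical was not tested.

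**Figure D2:**
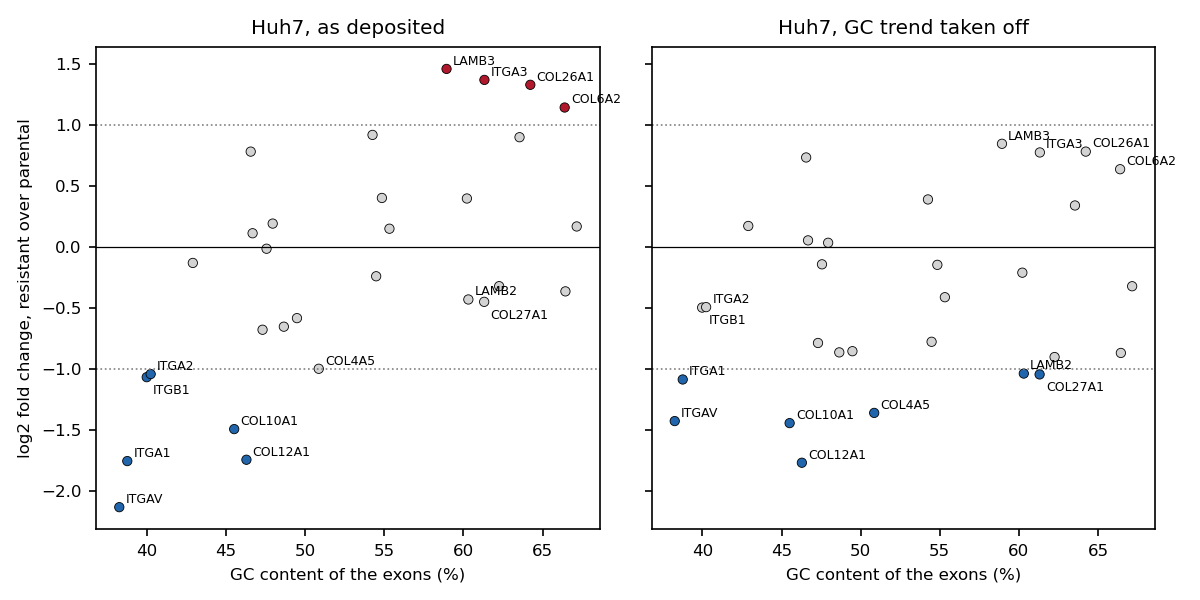
Log2 fold change of the 30 members tested in Huh7 against the GC content of their exons, as deposited (left) and with the GC trend of each sample taken off (right). Red and blue points are members called higher and lower, grey points are not called, and dotted lines mark a log2 fold change of 1 and -1; on the left the called genes split by GC content, and on the right no red point is left.

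In HepG2 cells, 1 member rose and 1 fell in resistant cells, of 22 tested. LAMA5 rose and ITGA2 fell. Over all 11762 genes tested, 3.29% rose and 2.98% fell, 6.27% in either direction, against 9.09% of the members. Groups did not overlap for 11 of 22 members (50%) against 40.4% of all genes. The median log2 fold change was 0.06 over the members and 0.12 over all genes. A further 4 members were higher and 1 was lower at an adjusted p-value under 0.05 in limma without reaching the fold threshold: COL27A1, ITGB4, COL9A3 and LAMA3, and ITGA1. LAMA3 was tested through its 3 resistant samples alone, as were the Huh7 members named above through 1 group. In this line the fold changes did not follow GC content (rho 0.04 across genes), and taking off the trend left the same calls, LAMA5 and ITGA2.

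The difference between the lines was tested as an interaction over all 12 samples. In 4 members the log2 fold change was higher in Huh7 than in HepG2 cells and in 8 it was lower, of 37 tested. Over all 13800 genes, 10.6% were higher and 18.2% lower. In either direction this was 28.8% of all genes and 32.4% of the members, so the share was near the background. COL6A2, COL26A1, ITGA3 and LAMB3 were on the higher side, and LAMA5, ITGAV, COL10A1, COL12A1, COL27A1, LAMA3, COL4A5 and COL9A3 on the lower. For COL6A2, COL26A1, ITGA3, LAMB3, COL12A1 and COL4A5 no HepG2 sample exceeded 0.183 FPKM, so the difference rests on Huh7. COL6A2, ITGA3, LAMB3, COL12A1, COL4A5 and LAMA3 reached 1 FPKM in the samples of 1 group alone. They had to differ between groups to be tested, so their interaction tests are not independent of that requirement. Median-ratio scaling moved the median of all genes in this test from -0.15 to -0.03. Within HepG2 it moved from 0.12 to 0.03, and between the parental lines from 0.19 to 0.05. Fold changes in these 3 comparisons are relative to the former values. With the GC trend taken off, none of the 4 higher calls passed the fold threshold, and ITGA2 was the 1 member called higher (1.28).

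**Figure D3:**
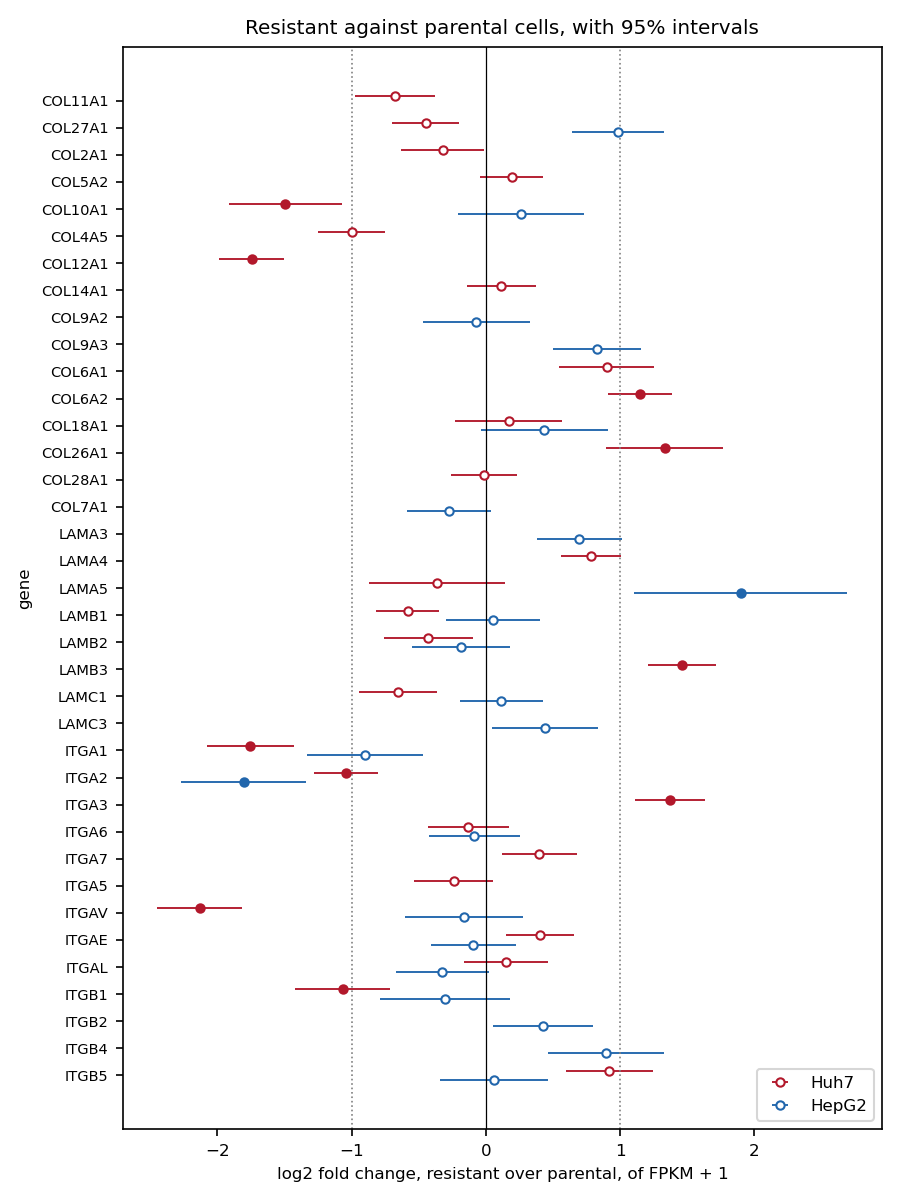
Log2 fold change of resistant over parental cells on log2(FPKM + 1), with 95% intervals, for each member tested in Huh7 (red) or HepG2 (blue); filled points passed both thresholds and dotted lines mark 1 and -1. ITGA1 and ITGA2 lie below 0 in both lines, whereas LAMA5 and COL27A1 lie on opposite sides.

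The collagen-binding integrin alpha chains are ITGA1, ITGA2, ITGA10 and ITGA11, which pair with ITGB1. ITGA2, the alpha2 chain, was 13.2, 14.8 and 15.2 FPKM in parental and 6.26, 6.92 and 6.23 FPKM in resistant Huh7 cells. In HepG2 cells it was 133, 83.8 and 109 FPKM in parental and 36.3, 26.2 and 28.1 FPKM in resistant replicates 1 to 3. Every resistant sample was below every parental sample of its line. The log2 fold change was -1.04 (SE 0.103, adjusted p = 7.78e-05 in limma) in Huh7 and -1.80 (SE 0.204, adjusted p = 0.00116) in HepG2, and the interaction was 0.76 (adjusted p = 0.0157), below the fold threshold. With the GC trend taken off, the Huh7 value was -0.49 and the HepG2 value -1.81. ITGA1, the alpha1 chain, was 9.18, 12.3 and 13.2 FPKM in parental and 2.80, 2.80 and 2.46 FPKM in resistant Huh7 cells. In HepG2 cells it was 5.72, 3.48 and 3.86 FPKM in parental and 2.20, 1.63 and 1.67 FPKM in resistant cells. Here too every resistant sample was below every parental sample of the same line. This was a log2 fold change of -1.75 (SE 0.141, adjusted p = 3.45e-05 in limma) in Huh7 and -0.90 (SE 0.189, adjusted p = 0.0138) in HepG2, short of the fold threshold in the latter. A pseudocount of 0.1 took the HepG2 value to -1.19 and past that threshold. ITGA1 is among the genes that the study chose from these samples for its signature, so its direction here is not independent evidence. A processed pseudogene and PELO, on the same strand, overlap 3.08% and 2.56% of its exon bases.

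The RGD-binding alpha chains are ITGA5, ITGA8, ITGAV and ITGA2B. ITGAV, the alphaV chain that binds vitronectin and can activate latent TGF-beta, had the lowest fold change on log2(FPKM + 1) of the 30 members tested in Huh7, while in the comparison on reads given further on LAMA2 and COL12A1 were lower still, at log2 -3.56 and -3.33 against -2.25. It was 85.5, 91.7 and 119 FPKM in parental and 21.4, 22.6 and 20.5 FPKM in resistant Huh7 cells. HepG2 cells had 33.8, 24.8 and 34.4 FPKM in parental and 34.1, 23.1 and 25.7 FPKM in resistant cells. The Huh7 groups stood well apart and the HepG2 groups overlapped. ITGAV thus had a log2 fold change of -2.13 (SE 0.137, adjusted p = 1.40e-05 in limma) in Huh7 and -0.16 (SE 0.193, 95% interval -0.61 to 0.28) in HepG2, and the interaction was -1.97 (adjusted p = 8.16e-05). With the GC trend taken off, the Huh7 value was -1.43 and stayed past both thresholds. ITGA5, the main fibronectin receptor chain, was 5.01 to 6.60 FPKM in parental and 4.31 to 5.31 FPKM in resistant Huh7 cells (log2 -0.24, adjusted p = 0.125), with the groups overlapping, and at most 0.141 FPKM in HepG2 cells. By the deposited values, with the GC trend kept, the summed FPKM of the integrin alpha chains was 126 to 162 in parental and 49.2 to 51.9 in resistant Huh7 cells. It was 119 to 179.7 in parental and 58.1 to 79.7 in resistant HepG2 cells. ITGAV was 67.4% to 73.2% of this sum in parental and 41.3% to 44.1% in resistant Huh7 cells, and ITGA2 was 70.5% to 74.3% in parental and 45.2% to 45.5% in resistant HepG2 cells.

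**Figure D4:**
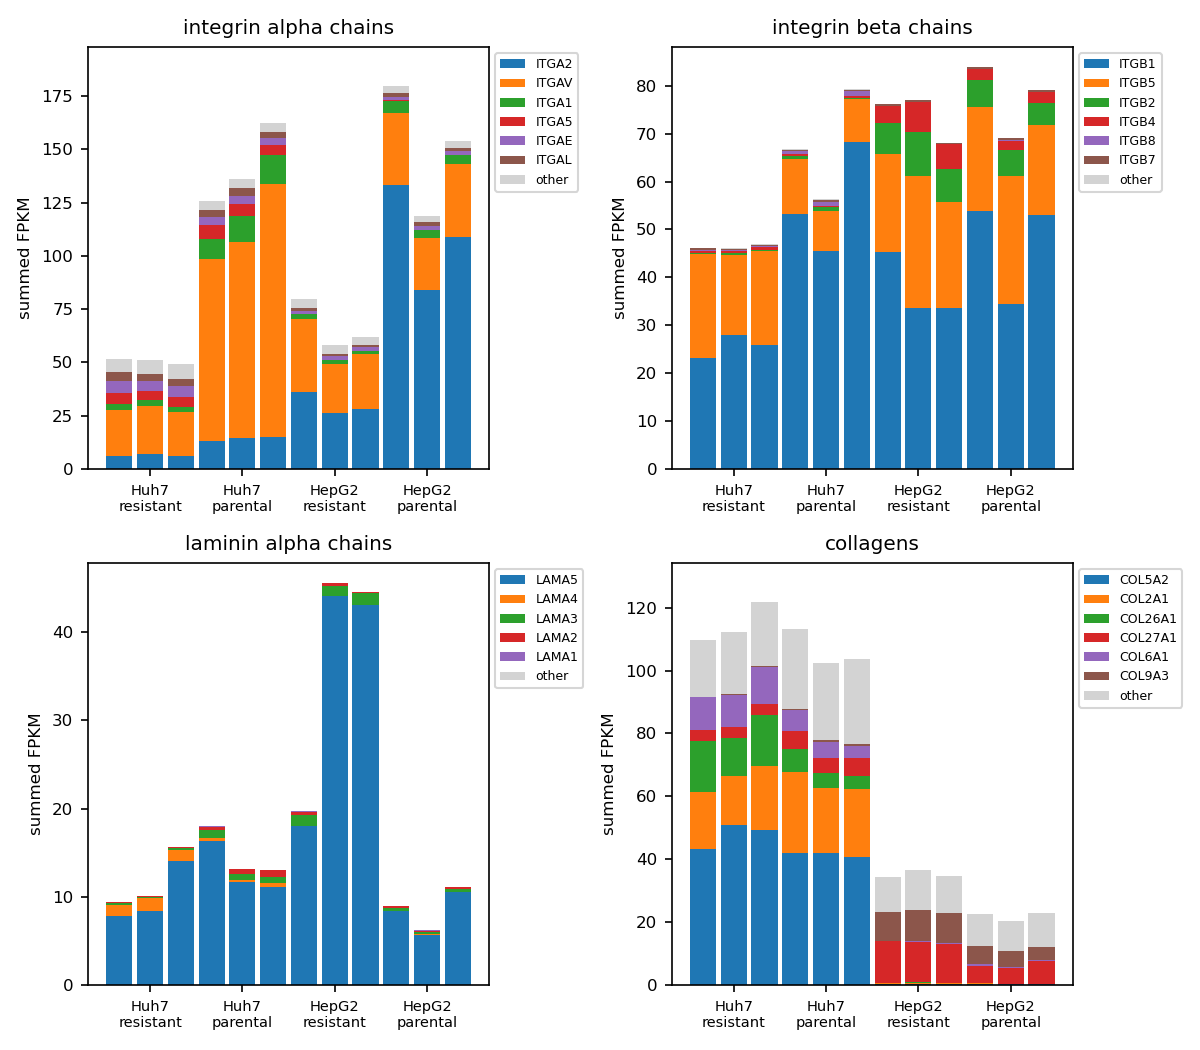
Summed FPKM of the integrin alpha chains, the integrin beta chains, the laminin alpha chains and the collagens in each of the 12 samples, with the most abundant genes in colour and the others in grey; the 3 bars over each label are replicates 1 to 3. The alpha chain sum is lower in resistant cells of both lines, at most 51.9 in Huh7 and 79.7 in HepG2, and the collagen sum is above 102 in every Huh7 sample and at most 36.7 in HepG2. Sums are of the deposited values, with the GC trend kept.

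The laminin-binding alpha chains are ITGA3, ITGA6 and ITGA7. ITGA3, the alpha3 chain, was 0.318, 0.309 and 0.215 FPKM in parental and 2.54, 1.99 and 2.43 FPKM in resistant Huh7 cells, 8.26-fold higher by the means. It was at most 0.136 FPKM in HepG2 cells. The Huh7 groups did not overlap, and the log2 fold change was 1.37 (SE 0.112, adjusted p = 3.66e-05 in limma). ITGA7 was higher in resistant Huh7 cells at log2 0.40 (adjusted p = 0.0180), below the fold threshold, and at -0.21 with the GC trend taken off. ITGA6, the alpha6 chain, was 0.955 to 1.76 FPKM over all 12 samples and differed by log2 -0.13 in Huh7 (95% interval -0.43 to 0.18) and -0.09 in HepG2 (-0.42 to 0.25).

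The integrin beta chains decide which pairs can form. ITGB1, the common partner of the collagen- and laminin-binding alpha chains, was 53.1, 45.5 and 68.2 FPKM in parental and 23.3, 28.0 and 26.0 FPKM in resistant Huh7 cells. In HepG2 cells it was 53.8, 34.3 and 53.0 FPKM in parental and 45.2, 33.7 and 33.6 FPKM in resistant cells, with overlap. ITGB1 had a log2 fold change of -1.07 (SE 0.155, adjusted p = 0.000417 in limma) in Huh7 and -0.31 (SE 0.210, adjusted p = 0.329) in HepG2. The Huh7 call was close to the fold threshold and was lost without parental replicate 3 or resistant replicate 1, where the log2 fold changes over all left-out samples were -1.20 to -0.91, and with the GC trend taken off (-0.50). ITGB5, which pairs with ITGAV, was 11.6, 8.45 and 9.15 FPKM in parental and 21.5, 16.8 and 19.5 FPKM in resistant Huh7 cells, without overlap. Its log2 fold change was 0.92 (adjusted p = 0.000574), short of the fold threshold, and without parental replicate 1 or resistant replicate 2 it passed. With the GC trend taken off, the value was 0.39 (adjusted p = 0.0084 in limma). By the deposited values, with the GC trend kept, the FPKM ratio of ITGAV to ITGB5 was 7.35 to 13.0 in parental and 0.996 to 1.34 in resistant Huh7 cells. In HepG2 cells the ratio was 0.927 to 1.84 in parental and 0.844 to 1.67 in resistant cells. ITGB4, the hemidesmosome chain that pairs with ITGA6, was 2.33, 2.01 and 2.29 FPKM in parental and 3.62, 6.40 and 5.21 FPKM in resistant HepG2 cells (log2 0.90, SE 0.189, adjusted p = 0.0146), also short of the fold threshold. ITGB2, the beta chain of leukocyte integrins, was 4.75 to 9.21 FPKM in HepG2 cells and at most 0.742 FPKM in Huh7 cells, and the difference between resistant and parental HepG2 cells did not pass the test (log2 0.42, adjusted p = 0.10). ITGB3, the other main partner of ITGAV, had at most 3 reads in any sample. AC068234.1, a protein-coding gene on the same strand, shares 51.6% of its exon bases, and how reads in shared bases were counted is not known. Of the leukocyte alpha chains, ITGAE and ITGAL were the most abundant, at 1.53 to 5.42 and 0.916 to 4.20 FPKM. ITGAE was higher in resistant Huh7 cells by log2 0.40 (adjusted p = 0.0105, below the fold threshold), but HASPIN lies within it on the other strand, shares 6.41% of its exon bases and reached 28.6 FPKM.

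**Figure D5:**
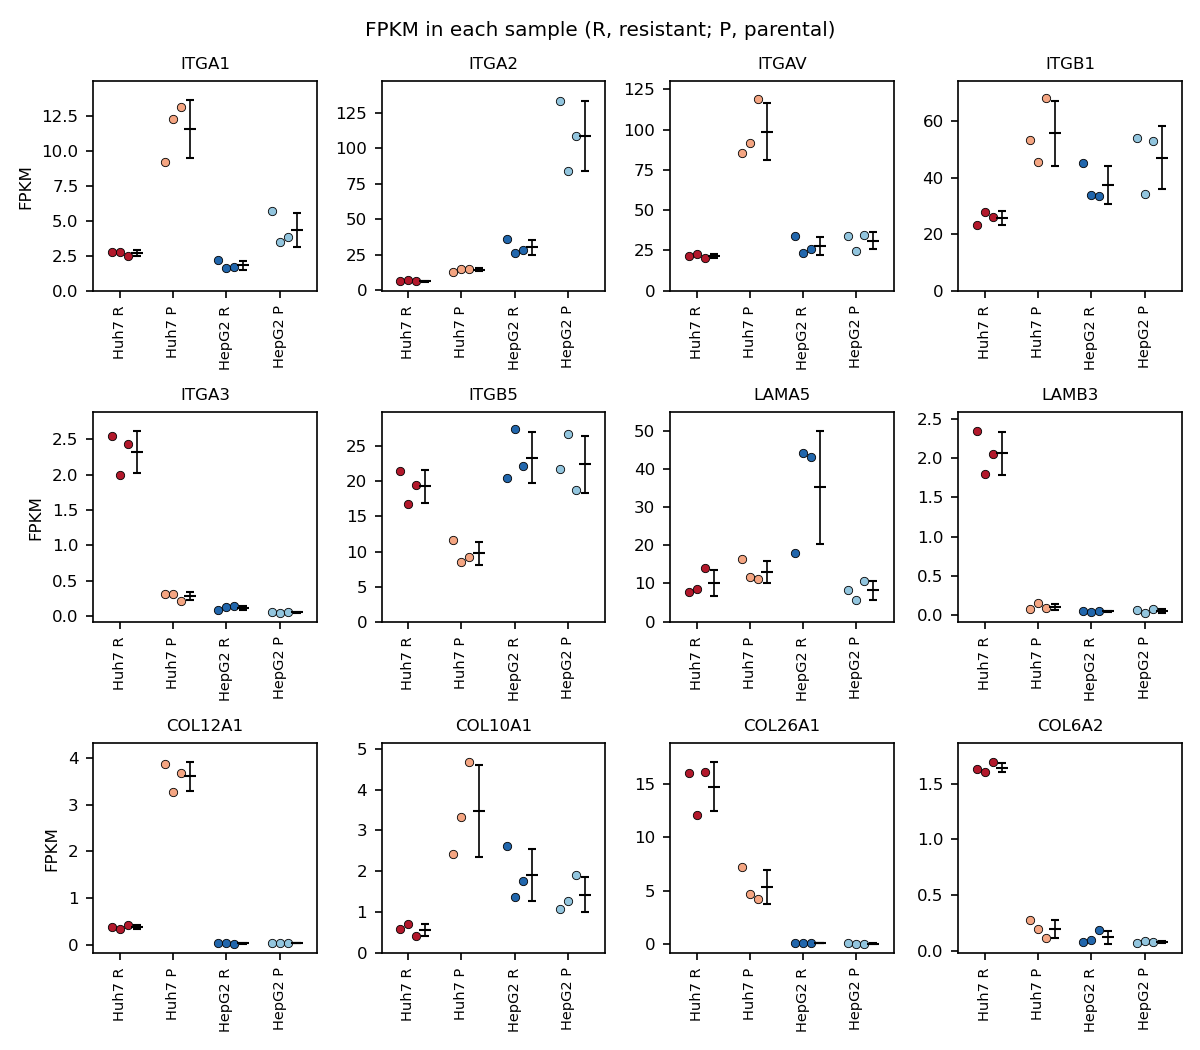
FPKM in each sample for 12 members, with the mean and SD of each group (n = 3) beside the points; R stands for resistant and P for parental cells. ITGA1 and ITGA2 are lower in resistant cells of both lines, ITGAV, ITGB1, COL12A1 and COL10A1 are lower in resistant Huh7 cells alone among the called genes, and resistant HepG2 replicate 1 lies at 18.0 FPKM of LAMA5 beside 43.1 and 44.1.

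LAMA5, the alpha5 chain of most adult basement membranes, had the largest change on log2(FPKM + 1) of the 22 members tested in HepG2 cells, while in the comparison on reads ITGA10, below the level needed here, was at log2 2.18 against 2.04 for LAMA5. It was 8.41, 5.72 and 10.5 FPKM in parental and 18.0, 44.1 and 43.1 FPKM in resistant HepG2 cells, 4.27-fold higher by the means. In Huh7 cells it was 16.4, 11.6 and 11.2 FPKM in parental and 7.84, 8.44 and 14.0 FPKM in resistant cells. The HepG2 groups did not overlap, although resistant replicate 1 was far below the other 2, and the Huh7 groups overlapped. LAMA5 had a log2 fold change of 1.90 (SE 0.346, adjusted p = 0.00831 in limma) in HepG2 and -0.36 (SE 0.221, adjusted p = 0.171) in Huh7, and the interaction was -2.26 (SE 0.476, adjusted p = 0.00203). With the GC trend taken off, the Huh7 value was -0.87 (adjusted p = 0.00177 in limma), below the fold threshold. Without resistant replicate 1, the HepG2 value was 2.31, and over all left-out samples it was 1.69 to 2.31. LAMA5 made up 91.7% to 96.9% of the summed FPKM of the alpha chains in resistant HepG2 cells and 83.5% to 89.8% in resistant Huh7 cells, so it was the main alpha chain throughout. ADRM1, on the other strand, shares 1.71% of its exon bases and reached 19.8 FPKM.

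LAMB3 and LAMA3 encode chains of the laminin that anchors epithelial cells through hemidesmosomes. LAMB3 was 0.0832, 0.152 and 0.0924 FPKM in parental and 2.34, 1.79 and 2.05 FPKM in resistant Huh7 cells, 18.9-fold higher by the means. HepG2 cells had at most 0.0814 FPKM of it. The Huh7 groups did not overlap, and the log2 fold change was 1.46 (SE 0.111, adjusted p = 2.73e-05 in limma). LAMA3 was the reverse in Huh7, from 0.874, 0.610 and 0.746 FPKM in parental to 0.238, 0.207 and 0.222 FPKM in resistant cells. The HepG2 values were 0.344, 0.289 and 0.409 FPKM in parental and 1.17, 1.12 and 1.25 FPKM in resistant cells (log2 0.70, adjusted p = 0.0110, below the fold threshold), and the interaction was -1.21 (SE 0.120, adjusted p = 1.87e-05).

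The remaining laminin chains were the common ones. LAMC1, the gamma1 chain of nearly all laminins, was 39.3, 30.5 and 30.6 FPKM in parental and 19.2, 22.1 and 21.2 FPKM in resistant Huh7 cells. LAMB1, the beta1 chain, was 60.04, 53.7 and 62.9 FPKM in parental and 37.5, 39.9 and 39.4 FPKM in resistant Huh7 cells. LAMB2, the beta2 chain, was 22.8, 19.4 and 15.7 FPKM in parental and 14.3, 12.5 and 15.1 FPKM in resistant Huh7 cells. All 3 were lower in resistant Huh7 cells without overlap and without reaching the fold threshold, at log2 -0.65, -0.58 and -0.43 with adjusted p-values of 0.00188, 0.00116 and 0.0269 in limma. In HepG2 cells the same chains differed by log2 0.12, 0.05 and -0.19, and their groups overlapped. LAMA4, found mostly in vessel and muscle basement membranes, was 0.318 to 0.396 FPKM in parental and 1.25 to 1.38 FPKM in resistant Huh7 cells (log2 0.78, adjusted p = 0.000209, below the fold threshold).

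The fibrillar collagens were led by COL5A2 and COL2A1, which were all but restricted to Huh7. COL5A2, a chain of type V collagen, was 40.8 to 42.0 FPKM in parental and 43.3 to 50.9 FPKM in resistant Huh7 cells, and 0.227 to 0.429 FPKM in HepG2 cells. Its usual partner chain COL5A1 was at most 0.0817 FPKM in any sample. COL2A1, the cartilage collagen, was 20.6 to 25.8 FPKM in parental and 15.4 to 20.4 FPKM in resistant Huh7 cells. Neither chain passed the test in Huh7, at log2 0.19 (adjusted p = 0.125) and -0.32 (adjusted p = 0.0606). With the GC trend taken off, COL2A1 was at -0.90 (adjusted p = 6.92e-05 in limma), below the fold threshold. COL27A1, a fibrillar collagen of cartilage, moved in opposite directions: it was 5.78, 4.77 and 5.50 FPKM in parental and 3.66, 3.78 and 3.50 FPKM in resistant Huh7 cells, and 5.62, 5.19 and 7.24 FPKM in parental and 13.2, 12.7 and 12.4 FPKM in resistant HepG2 cells. No values overlapped within a line. Its fold change on the log2 scale was -0.45 (adjusted p = 0.00571 in limma) in Huh7 and 0.98 (adjusted p = 0.00407) in HepG2, neither past the fold threshold, and the interaction was -1.43 (SE 0.164, adjusted p = 4.80e-05). COL11A1 was lower in resistant Huh7 cells at log2 -0.68 (adjusted p = 0.00171), again below the fold threshold.

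The network-forming collagens include type IV, the sheet of basement membranes, and COL10A1, known from growth cartilage. COL10A1 was 2.42, 3.33 and 4.67 FPKM in parental and 0.580, 0.707 and 0.400 FPKM in resistant Huh7 cells. The HepG2 values were 1.08, 1.28 and 1.90 FPKM in parental and 2.62, 1.38 and 1.75 FPKM in resistant cells. The Huh7 groups were apart and the HepG2 groups overlapped, with log2 fold changes of -1.49 (SE 0.184, adjusted p = 0.000187 in limma) and 0.26 (SE 0.205, adjusted p = 0.389), and an interaction of -1.75 (SE 0.291, adjusted p = 0.000487). COL4A5, the alpha5 chain of type IV collagen, was 1.42, 1.56 and 1.87 FPKM in parental and 0.315, 0.323 and 0.284 FPKM in resistant Huh7 cells, 5.26-fold lower by the means. Its log2 fold change of -0.998 (SE 0.109, adjusted p = 0.000113) was just short of the fold threshold and passed it with the GC trend taken off (-1.36). COL4A6 has 2 RefSeq windows, and 1 of them holds 121 bases of the upstream stretch shown above for COL4A5. It had 50, 43 and 61 reads in parental and 9, 7 and 6 reads in resistant Huh7 cells. Both genes of this divergent pair were thus lower in every resistant Huh7 sample, where groups did not overlap for 74.5% of all genes tested. COL4A3 and COL4A4, also a divergent pair, 111 bases apart, had 104 to 121 and 22 to 28 reads in parental and 52 to 73 and 11 to 13 reads in resistant Huh7 cells. The widespread chains COL4A1 and COL4A2, a divergent pair whose annotated genes overlap at their starts, were at most 0.108 FPKM in any sample.

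Of the fibril-associated collagens, COL12A1, which coats type I fibrils, had the largest fold change on log2(FPKM + 1) of the collagens tested in Huh7. It was 3.87, 3.27 and 3.68 FPKM in parental and 0.372, 0.337 and 0.413 FPKM in resistant Huh7 cells, 9.65-fold lower by the means. HepG2 cells had at most 0.0326 FPKM. The log2 fold change was -1.74 (SE 0.105, adjusted p = 1.13e-05 in limma) and was -1.77 with the GC trend taken off. COL14A1, a related chain, was 6.12 to 7.13 FPKM in parental and 6.56 to 7.99 FPKM in resistant Huh7 cells, with a 95% interval of the log2 fold change of -0.14 to 0.37. COL9A3 and COL9A2, chains of type IX collagen, were the reverse of the Huh7-restricted chains, with 4.23 to 9.92 and 2.34 to 3.98 FPKM in HepG2 cells. COL9A3 was higher in resistant HepG2 cells (9.22, 9.92 and 9.43 against 5.68, 4.94 and 4.23 FPKM) at log2 0.83 (adjusted p = 0.00674), below the fold threshold, while COL9A2 differed by -0.07 and COL9A1 was at most 0.0436 FPKM in any sample. The FPKM ratio of COL9A3 to COL9A2 was 1.33 to 1.86 in parental and 2.49 to 3.94 in resistant HepG2 cells.

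The beaded filament collagen, type VI, is built of COL6A1, COL6A2 and a longer chain such as COL6A3. COL6A2 was 0.279, 0.198 and 0.115 FPKM in parental and 1.63, 1.61 and 1.69 FPKM in resistant Huh7 cells, 8.32-fold higher by the means. COL6A1 was 6.58, 5.32 and 4.08 FPKM in parental and 10.3, 9.99 and 11.7 FPKM in resistant Huh7 cells. Neither gene's groups overlapped. The log2 fold change was 1.14 (SE 0.104, adjusted p = 5.42e-05 in limma) for COL6A2 and 0.90 (SE 0.155, adjusted p = 0.000972) for COL6A1, which was short of the fold threshold. The FPKM ratio of COL6A1 to COL6A2 went from 23.6 to 35.5 in parental to 6.21 to 6.94 in resistant Huh7 cells, and COL6A3 was at most 0.0334 FPKM in any sample. COL26A1, a short collagen of the extracellular matrix, was 7.19, 4.68 and 4.18 FPKM in parental and 16.1, 12.1 and 16.2 FPKM in resistant Huh7 cells, without overlap (log2 1.33, SE 0.189, adjusted p = 0.000371). HepG2 cells had at most 3 reads of it. COL18A1, the source of endostatin and the most abundant multiplexin, was 2.01 to 3.59 FPKM in Huh7 and 1.498 to 3.26 FPKM in HepG2 cells, with overlap in both lines, and shares 16.4% of its exon bases with SLC19A1 on the other strand. None of the 4 transmembrane collagens was tested in either line.

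Members below 1 FPKM were compared on reads calculated back from the values, with limma-voom on genes of at least 10 reads in 3 samples, an analysis chosen after seeing the data. The GC trend was kept here, and how far the Huh7 calls on reads depend on GC content was not tested. Reads are printed unscaled, while the test allowed for depth. Every resistant sample was deeper than every parental sample of its line, so it reached 10 reads more easily. In Huh7, 60 members were tested in this way, with 11 higher and 19 lower, against 12.9% and 23.7% of 15259 genes. Of these, 30 were below the level needed before, and 6 of them were higher and 11 lower. COL1A1 and COL1A2, the chains of type I collagen, had 23, 25 and 22 and 29, 25 and 22 reads in parental and 117, 87 and 139 and 231, 192 and 201 reads in resistant Huh7 cells (log2 2.01 and 2.78, adjusted p = 5.23e-07 and 2.02e-10 in limma). Both type I chains were higher in every resistant Huh7 sample, and COL1A2 was still no more than 1.09 FPKM. COL3A1, the type III chain, fell from 27, 22 and 15 to 2, 1 and 8 reads (log2 -2.99, adjusted p = 2.94e-05). LAMA2, the muscle laminin chain, had 80, 93 and 128 reads in parental and 11, 12 and 6 in resistant Huh7 cells (log2 -3.56, adjusted p = 4.48e-09). COL4A6 was lower (log2 -2.96, adjusted p = 1.80e-07). In the same test COL4A3 and COL4A4 were lower (log2 -1.02 and -1.23), as were LAMA3, for which reads are approximate, ITGB8, ITGA9, ITGA11, COL6A6 and LAMB4, and COL5A3, COL16A1 and ITGAM were higher, the last with approximate reads. COL16A1 had 0 to 5 reads in parental and 23 to 25 in resistant Huh7 cells (log2 3.45, adjusted p = 1.51e-05). In Huh7, COL16A1, COL5A3, COL3A1 and COL4A6 had 10 reads or more in the samples of 1 group alone. They had to differ to be tested, so their results, and the counts that hold them, are not independent of that requirement. In HepG2, 45 members were tested, with 10 higher and 2 lower, against 7.33% and 4.98% of 13815 genes. The 6 low members that were higher were ITGA10, COL16A1, COL6A6, COL2A1, ITGA9 and ITGA7, and 0 low members were lower. ITGA10, a collagen-binding alpha chain of cartilage, had 11, 20 and 23 reads in parental and 76, 123 and 109 reads in resistant HepG2 cells (log2 2.18, adjusted p = 0.000406). COL16A1 was higher in resistant cells of both lines, while COL6A6 was 128 to 139 reads in parental and 23 to 39 in resistant Huh7 cells but 6 to 13 in parental and 46 to 60 in resistant HepG2 cells, a difference between the lines that was not tested.

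The parental lines gave the levels from which the resistant cells were compared. Of 30 members tested, 12 were higher in parental Huh7 and 7 in parental HepG2 cells (63.3%). Of 12796 genes, 19.4% and 12.5% were, 31.9% in either direction. Collagens made up most of the former: COL5A2, COL2A1, COL14A1, COL26A1, COL6A1, COL12A1, COL4A5, COL11A1 and COL28A1, beside ITGA5, ITGAV and ITGA1. Higher in parental HepG2 cells were ITGA2, COL9A3, ITGB2, ITGB4, COL7A1, ITGB5 and COL9A2. Apart from ITGAV, ITGA1, ITGA2, ITGB5 and COL9A2, these genes reached 1 FPKM in the 3 parental samples of 1 line alone and so had to differ, and the shares are no support for a difference of the members from other genes. ITGA2 was 7.56-fold higher in HepG2 by the means (log2 -2.81, SE 0.181, adjusted p = 4.44e-06 in limma), and ITGAV was 3.18-fold higher in Huh7 (log2 1.64, SE 0.185, adjusted p = 0.000104). COL7A1, the anchoring fibril collagen, was 1.43 to 1.73 FPKM in parental HepG2 and 0.0615 to 0.113 FPKM in parental Huh7 cells. The summed FPKM of the collagens was 102 to 113 in parental and 109.6 to 122 in resistant Huh7 cells, and 20.3 to 22.8 in parental and 34.3 to 36.7 in resistant HepG2 cells. The HepG2 groups of this sum did not overlap, and COL27A1 and COL9A3 were the chains that made up most of it.

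Genes that make, hold or cut this matrix were counted from 5 lists. The lists were taken from the deposited values alone, with the GC trend kept. In Huh7, fold changes followed GC content (rho 0.62 across genes), and how far the Huh7 calls of the lists depend on it was not tested. Of 25 tested genes for collagen synthesis and crosslinking in Huh7, 5 rose and 4 fell (20% and 16%, against 8.59% and 14% of all genes). PPIB, FKBP10, SERPINH1 and CRTAP, which fold or modify procollagen in the endoplasmic reticulum, and PCOLCE, which helps to cleave it, rose, as with FKBP10 from 8.03 ± 0.801 to 39.8 ± 2.37 FPKM (SD, n = 3; log2 2.18). PLOD2 and LOX, which prepare and make collagen crosslinks, LOXL4 and MIA3 fell, with PLOD2 at 40.7 ± 6.21 in parental and 13.2 ± 1.56 FPKM in resistant cells (log2 -1.55). In HepG2, 0 rose and 2 fell of 24 tested, LOXL4 and PCOLCE2 (8.33% lower, against 2.98% of all genes). LOXL4, a lysyl oxidase, had log2 -1.64 in Huh7 and -1.65 in HepG2, and the study chose it from these samples for its signature, so its direction in both lines is not independent evidence. The median log2 fold change of this list was 0.16 in Huh7 and 0.15 in HepG2. Of 21 tested basement membrane and adhesive glycoproteins in Huh7, 3 rose (FBLN1, EFEMP1 and FBLN2) and 4 fell (CYR61, THBS1, NPNT and NID2), with a list median of -0.10. These were 14.3% and 19.0% of the list, against the same 8.59% and 14% of all genes. THBS1, an integrin and CD47 ligand, was 15.3 ± 1.98 in parental and 2.76 ± 0.596 FPKM in resistant cells (log2 -2.12). In HepG2, 3 of 18 rose (SPP1, FREM1 and NTN4) and 2 fell (VTN and TINAGL1), 16.7% and 11.1% against 3.29% and 2.98% of all genes. SPP1, the integrin ligand osteopontin, was 40.7 ± 13.2 in parental and 144 ± 25.6 FPKM in resistant HepG2 cells (log2 1.83), and VTN, the ligand of ITGAV pairs, was 89.2 ± 17.1 and 41.2 ± 6.40 FPKM (log2 -1.09).

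Of 33 tested genes of the integrin adhesion complex in Huh7, 6 rose (FLNA, CD151, SRC, PLEC, FERMT1 and TNS1) and 3 fell (DST, KRIT1 and NEDD9), with a list median of 0.19. At 18.2% and 9.09% of the list, against 8.59% and 14% of all genes, the share called in either direction was near the background of 22.6%. CD151, a tetraspanin that binds the laminin-binding integrins, was 18.9 ± 2.72 in parental and 57.9 ± 5.71 FPKM in resistant Huh7 cells (log2 1.57). In HepG2, TNS4 fell and 0 rose of 32 tested (3.12% lower, near the 2.98% of all genes). Of 10 other matrix receptors tested in each line, RPSA, SDC1 and DAG1 rose and HMMR and CD47 fell in Huh7, and SDC4 fell in HepG2, from 203 ± 49.1 to 25.1 ± 2.58 FPKM (log2 -2.94, SE 0.194, adjusted p = 0.000157 in limma). The Huh7 counts were 30% and 20% of the list and the HepG2 count 10%, against 8.59% and 14% and against 2.98% of all genes. DAG1 is also in the study's signature and is not independent evidence, and RPSA has many processed copies in the genome that could share its reads. Of 18 tested matrix proteases and inhibitors in Huh7, TIMP1, MMP15, TIMP2 and ADAM15 rose and ADAM10, ADAM9 and CTSK fell, 22.2% and 16.7% of the list against 8.59% and 14% of all genes. TIMP1, an inhibitor of metalloproteases, had the largest rise of these, from 0.991 ± 0.443 to 14.2 ± 2.70 FPKM (log2 2.94).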

How the data were processed

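Each sample has a deposited table of 98711 genes with a value for each, and the authors had made these FPKM by steps that they do not describe; the aligner, counter and unit are not given in the sources used here. The submitters' processing notes name bcl2fastq and GRCh38. The unit was read from the values: multiplied by GENCODE release 29 exon length, 96.4% of the values of up to 2000 reads came within 0.05 of a whole number of reads, for 74 of the 82 members among others, and RPKM and FPKM cannot be told apart. The 71462 NONCODE rows were not analysed. Labels and methods name different RNA extraction reagents.

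The deposited FPKM were used without rescaling. Genes that reached 1 FPKM in 3 or more samples of a comparison were fitted with limma 3.58.1 (R 4.3.3; empirical Bayes, trend on mean expression) on log2(FPKM + 1). Tests were two-sided, p-values were adjusted by Benjamini-Hochberg over all genes tested, and calls needed 0.05 for the adjusted p and 1 for the size of the log2 fold change, the thresholds of the study. Python 3.11.15 with numpy 2.4.6, pandas 2.3.3 and matplotlib 3.10.9 handled the tables and plots. The fit was tested on simulated data. Depth was 16158297 to 17944446 reads in parental and 18972389 to 19285959 in resistant Huh7 samples. It was 12290128 to 15728847 in parental and 16935536 to 18281775 in resistant HepG2 samples, so resistant samples were deeper in both lines. Reads without molecular identifiers bound counting error only. Groups and replicate numbers came from the sample titles. Alternatives were a pseudocount of 0.1, no filter, a floor of 10 reads in each sample, limma-voom on reads, scaling by upper quartile or by median ratio, no trend, all 12 samples in 1 fit, the replicate number as a block, the GC trend taken off (lowess, span 0.3), no minimum fold change and leaving out each sample; limma-voom with at least 10 reads in 3 samples was added after seeing the data.

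Members, gene lists and markers were chosen with earlier results of these data known. Named members are those past both thresholds within a line, their partner chains and divergent neighbours, and the most abundant member of a role that passed the filter. List genes past both thresholds in a line were named, up to 6 per line and list, highest mean first; other names beside these, such as the low members compared on reads, were chosen after their values were seen. Values of 1 low member and of 1 gene of the protease list are not reported here.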

Additional observations from a re-analysis of the deposited data

Results flagged for a closer look

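The fold change of resistant over parental cells differed between the lines for 12 members by the interaction test in limma (adjusted p under 0.05 and a log2 difference beyond 1, Huh7 minus HepG2). The difference was -2.26 for LAMA5, -1.97 for ITGAV, -1.75 for COL10A1, -1.73 for COL12A1, -1.43 for COL27A1, -1.21 for LAMA3, -1.03 for COL4A5 and -1.01 for COL9A3. It was 1.09 for COL6A2, 1.29 for COL26A1, 1.29 for ITGA3 and 1.47 for LAMB3. COL27A1 and LAMA3 moved in opposite directions in the lines without overlap of the groups. COL12A1, COL4A5, COL6A2, COL26A1, ITGA3 and LAMB3 were at most 0.183 FPKM in every HepG2 sample. COL12A1, COL4A5, COL6A2, ITGA3, LAMB3 and LAMA3 reached 1 FPKM in the samples of 1 group alone, so their tests are not independent of the level needed.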

How the results depend on the processing

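Counts of called members are given as higher and lower. The replicate block gave 4 and 6 in Huh7, 1 and 1 in HepG2, 4 and 8 for the interaction and 12 and 7 between the parental lines, the counts without it. The labels do not say that a number marks a shared culture, and deviations of same-numbered samples correlated at 0.08, 0.06 and -0.23 in Huh7 and 0.25, 0.44 and -0.01 in HepG2, so the numbers were not taken as pairs; not every sample matched its own number best. With no minimum fold change the counts were 9 and 12 in Huh7, 5 and 2 in HepG2 and 11 and 17 for the interaction. A pseudocount of 0.1 and limma-voom each gave 4 and 2 in HepG2, and limma-voom with at least 10 reads in 3 samples gave 11 and 19 in Huh7 and 10 and 2 in HepG2. With the GC trend taken off, 0 were higher in Huh7 and 1 for the interaction; with 10 reads in every sample 0 were higher for the interaction and 5 between the parental lines, where fewer genes were tested. Leaving out 1 sample gave 1 to 6 and 3 to 7 in Huh7, 1 to 2 and 1 to 2 in HepG2, 1 to 5 and 5 to 9 for the interaction, and 2 to 13 and 2 to 8 between the parental lines; fewer members then had 3 samples at 1 FPKM.

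Directions reversed for uncalled members only. With the GC trend taken off in Huh7, ITGAL was -0.41, ITGAE -0.15, ITGA6 0.17, ITGA7 -0.21 and COL18A1 -0.32. In HepG2, upper-quartile and median-ratio scaling gave ITGB5 -0.0196 and -0.050 and LAMB1 -0.029 and -0.060, and leaving out 1 sample gave ITGB5 -0.057 to 0.19, LAMB1 -0.081 to 0.13 and COL9A2 up to 0.061 (without resistant replicate 1). COL28A1 in Huh7 was 0.0041 with median-ratio scaling and -0.063 to 0.026 with 1 sample left out. Of the other values of single members, 1267 kept their direction and side of the threshold, 34 newly passed it and 22 no longer did.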

Other observations

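COL3A1 and COL5A2 are convergent neighbours on chromosome 2, 19149 bases apart. COL5A2 was 40.8 to 50.9 FPKM in the Huh7 samples, in which COL3A1 had 1 to 27 reads. ITGA3 and COL1A1 are convergent neighbours on chromosome 17, 92807 bases apart, and both were higher in every resistant than in every parental Huh7 sample. Groups did not overlap for 74.5% of all genes tested in Huh7, so this says little about the neighbours.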
